A study of Mus musculus with 15 samples.

Results

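The genes described here are 8 transcripts known to be induced by interferon, followed through removal of the olfactory bulbs in mouse olfactory epithelium: Ifitm3, Irf9, Irf7, Ifi47, Gbp2, Irgm1, Ifit1 and Ifi27l2a. They were chosen by name with earlier results of these data known, so counts of called members are no independent evidence. Every probe set annotated to exactly 1 of these symbols was taken, which gave 9 probe sets of 12422 on the array, or 8 genes of 8251. Irf7 had a pair of probe sets and the other genes 1 each. Of the 9 probe sets, 7 had a present call on 3 or more of the 15 arrays and were tested; the 2 Irf7 probe sets were not. Ifi47 met that rule through OBX arrays alone. It had present calls on 1, 2 and 3 arrays at OBX days 1, 5 and 7 and on 0 sham or untreated arrays. Gbp2 had them on 1 sham and 1 untreated array, too few for the rule without its OBX arrays.

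Affymetrix MG_U74Av2 arrays measured olfactory epithelium of male C57Bl/6 mice aged 6 weeks, with 3 arrays in each of 5 groups. The groups were mice at 1 day, 5 days and 7 days after bilateral olfactory bulbectomy (OBX), mice at 5 days after a sham operation, and untreated mice. OBX takes away the brain structure to which olfactory sensory neurons project, and these neurons then die and are replaced from basal cells. Each array carried RNA pooled from 3 mice with 5 µg from each; the labels name no allele, transgene or cell sorting. No sham group of days 1 and 7 was analysed here, so those OBX groups were set against untreated mice, and OBX day 5 was set against sham. A fall or rise in such a tissue cannot tell a change in the number of cells of a type from a change in RNA per cell.

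Interferons bind receptors at the cell surface, and the JAK and STAT proteins behind those receptors carry the signal to the nucleus. Type I interferons act through a complex that contains IRF9 and binds the interferon-stimulated response element (ISRE); interferon gamma acts mainly at gamma-activated sites (GAS). The genes switched on limit virus entry, bind foreign RNA, attack the vacuoles of intracellular microbes and change the peptides shown on MHC class I. The nasal epithelium is exposed to inhaled microbes, and interferon-induced genes are also used there, as elsewhere, as a sign of immune activation after injury.

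The promoter sequences show which members carry the letters of these elements next to their start. RefSeq promoter windows (GRCm38.p6, 250 bases before to 50 after the start) were found for 7 of the 8 members, 8 windows in all because Irf9 has a pair; Ifi27l2a was not matched. An ISRE core was searched as GAAA, any 2 bases and GAAA again, and a GAS as TTCNNNGAA, on both strands, with overlapping matches counted. An ISRE match lay in the windows of 4 of the 7 members, Ifitm3, Gbp2, Irgm1 and Ifit1, whereas 3.99% of the 27025 genes with a window, and 3.44% of all 32851 windows, held one. A GAS match lay in the window of 1 member, Ifitm3, where it overlapped an ISRE match, and in the windows of 9.55% of genes (8.3% of all windows). The windows of Irf9, Irf7 and Ifi47 held neither, which says only that these letters are not in them. The 250 bases before the start are shown for the 3 members with ISRE letters there, because 2 of them were higher after OBX and the third was lower; capitals mark the ISRE matches.
Gbp2 (chr3:142620413-142620662, plus strand): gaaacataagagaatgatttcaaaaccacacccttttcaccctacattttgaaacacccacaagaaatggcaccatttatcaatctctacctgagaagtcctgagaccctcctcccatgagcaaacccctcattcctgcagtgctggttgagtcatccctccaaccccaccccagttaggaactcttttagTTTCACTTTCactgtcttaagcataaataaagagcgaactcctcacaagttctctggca
Irgm1 (chr11:48871421-48871670, minus strand): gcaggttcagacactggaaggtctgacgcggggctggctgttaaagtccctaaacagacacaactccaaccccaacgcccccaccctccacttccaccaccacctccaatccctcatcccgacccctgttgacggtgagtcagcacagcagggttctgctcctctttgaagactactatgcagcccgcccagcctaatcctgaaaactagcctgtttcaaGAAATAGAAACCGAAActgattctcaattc
Ifit1 (chr19:34640639-34640888, plus strand): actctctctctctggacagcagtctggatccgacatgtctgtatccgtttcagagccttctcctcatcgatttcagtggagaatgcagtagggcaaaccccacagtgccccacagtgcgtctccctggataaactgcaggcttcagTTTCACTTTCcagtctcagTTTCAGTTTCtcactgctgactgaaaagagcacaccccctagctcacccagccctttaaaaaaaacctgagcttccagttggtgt
Irgm1 holds 2 matches that overlap, starting 30 and 24 bases before its start, and both read on the strand of the gene. Ifit1 holds 2 separate matches that start 104 and 85 bases before its start, and Gbp2 holds 1 that starts 59 bases before; these 3 read on the opposite strand. The 2 matches of Ifitm3 lie just after its start, at positions 3 and 20 of the transcribed sequence, and are shown with 10 bases on either side.
Ifitm3, first match (chr7:141010723-141010752, minus strand): caaaattcagGAAAAGGAAActtctgagaa
Ifitm3, second match (chr7:141010706-141010735, minus strand): aaacttctgaGAAACCGAAActgccgcaga

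Before the members, 3 facts of the whole set of arrays bear on them. OBX day 1 arrays 1 and 2, all sham and all untreated arrays were scanned on one day, and OBX day 1 array 3 with all OBX day 5 and day 7 arrays on another. The 3 OBX day 5 arrays correlated with each other at 0.914 to 0.970 over the 7508 tested probe sets, against 0.965 to 0.986 within the other groups; without OBX day 5 array 1, 2 or 3 the member calls at OBX day 5 numbered 4, 2 and 3. The tissue's own markers were in place: Omp, Adcy3 and Cnga2 of mature olfactory sensory neurons were called present on every array. Of 6 such markers, 5 were called lower at OBX day 5 than in sham mice, where 9.19% of all probe sets were. At OBX day 7, 5 were called lower than in untreated mice, where 978 of the 7508 probe sets were called, 526 of them higher. The T cell gene Cd3e and the B cell gene Cd79a were called present on 0 arrays in each of the 5 groups. Other genes of these lists were detected. Of 7 B and plasma cell markers, 2 to 4 were called present on all 3 arrays of a group. Of 9 T and NK cell markers, 0 to 2 were.

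After OBX, Ifitm3 was called higher at days 1, 5 and 7, Irf9 at days 1 and 7, and Irgm1 and Ifi27l2a at days 5 and 7. Gbp2 and Ifi47 were called higher at day 7, and Ifit1 was called lower at day 5. A call at 1 time and not at another is no difference between the times. Differences were tested with limma on log2 signals, and limma adjusted p is the Benjamini-Hochberg value over all 7508 tested probe sets. At OBX day 1, 2 of the 7 tested members were higher than in untreated mice, where 1.8% of all probe sets were called higher. At OBX day 5, 3 members were higher than in sham mice and 1 was lower, where 11.8% and 9.19% of all probe sets were. At OBX day 7, 6 members were higher than in untreated mice, where 7.01% of all probe sets were. Of the 6, Ifi47 was tested through its OBX arrays alone. Gbp2 also met the rule on present calls only with its OBX arrays. The median log2 change of the 7 members was 0.63, 0.70 and 0.92 in these 3 comparisons, and that of all probe sets was 0.00, -0.01 and 0.03, given as a description. Sham mice differed from untreated mice in 0 members and in 0% of probe sets by limma, with 112 probe sets at an unadjusted p under 0.05 and a smallest limma adjusted p of 0.74; the log2 changes of the 7 members lay between 0.16 and 0.33.

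**Figure D1:**
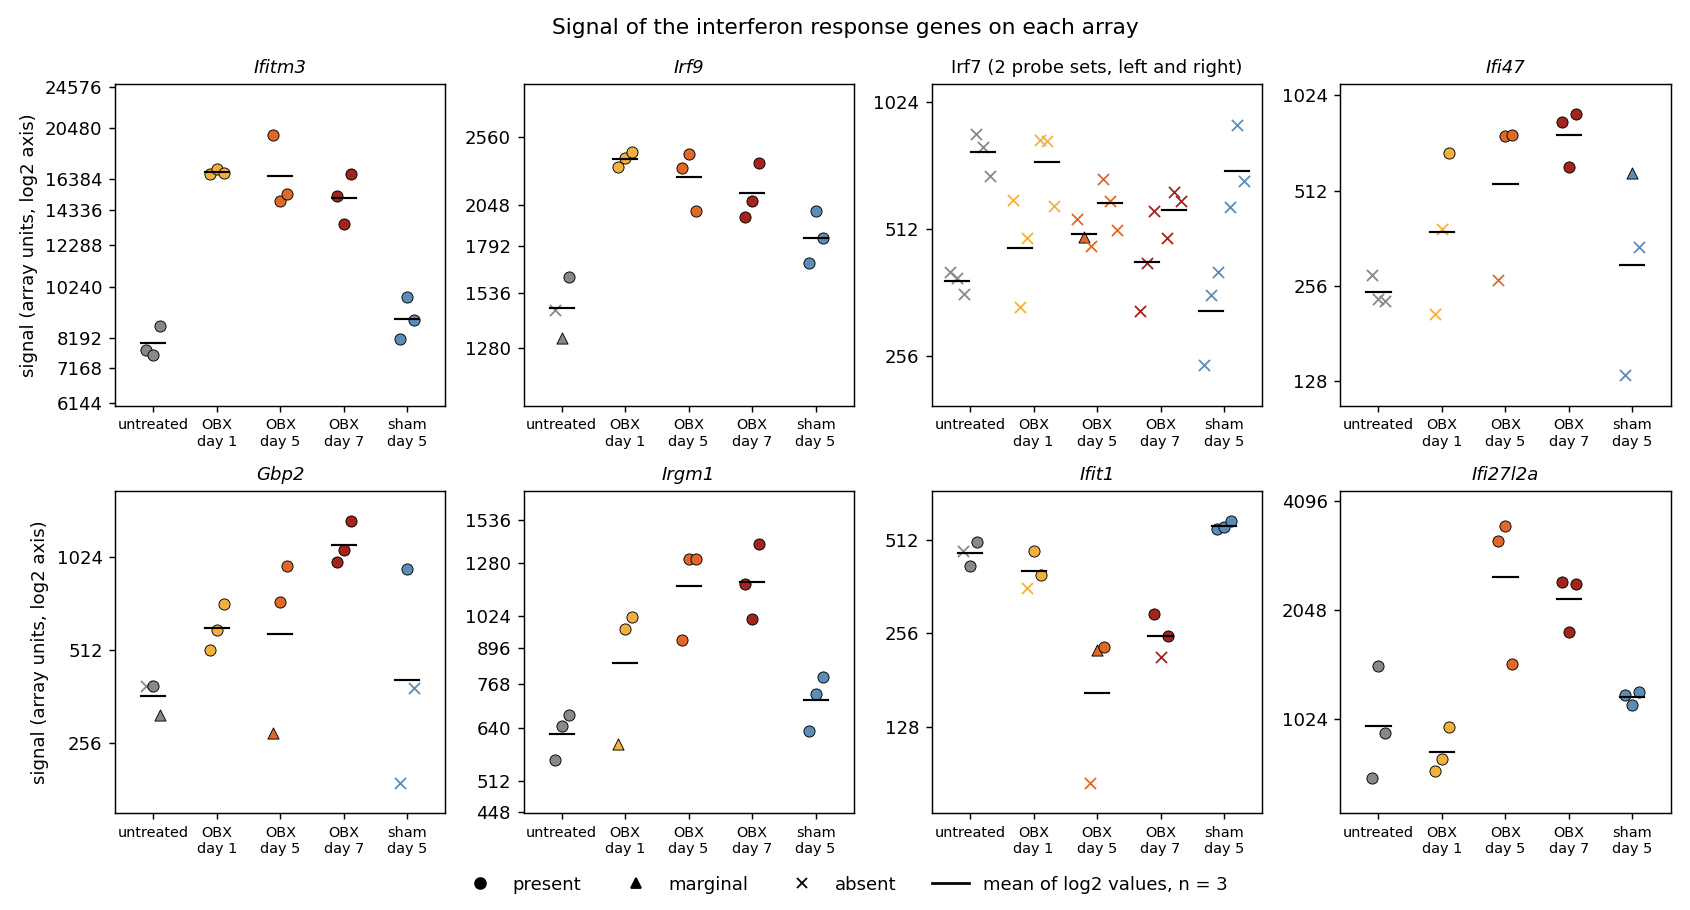
Signal (array units, log2 axis) of each member on each of the 15 arrays, 1 point an array, with circles for present, triangles for marginal and crosses for absent calls; bars are means of log2 values (n = 3). Ifitm3 lay at or above 13482 on every OBX array and at or below 9789.7 on every sham and untreated array. Ifit1 had its lowest group mean at OBX day 5, where its signals overlapped those at OBX day 7. Irf7 was called absent on nearly all arrays.

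Ifitm3, a membrane protein that restricts the entry of enveloped viruses, was higher on every OBX array than on any control array. Its signals were 16779, 17156 and 16848 at OBX day 1, against 7769.6, 7601 and 8636 in untreated mice. They were 19909, 14887 and 15379.6 at OBX day 5, against 8137, 9789.7 and 8849 in sham mice. At OBX day 7 they were 15206, 13482 and 16782. The OBX and control groups did not overlap at any time. The log2 change was 1.08 ± 0.12 at OBX day 1, a fold of 2.12 (SE, n = 3 each, limma adjusted p = 0.00029). It was 0.90 ± 0.12 at OBX day 5 (limma adjusted p = 0.00015) and 0.92 ± 0.12 at OBX day 7 (limma adjusted p = 0.00024). No pair of times was called: OBX day 7 minus OBX day 1 was -0.17 ± 0.12 with a limma adjusted p of 0.59. With scan day as a block the day 1 change passed (1.09, limma adjusted p = 0.0032), and those at OBX day 5 (0.91, limma adjusted p = 0.081) and OBX day 7 (0.93, limma adjusted p = 0.15) kept their size but not their call. Arrays that shared a deposited hybridize date were taken as a fluidics run. With fluidics run as a block, fitted without the OBX day 7 arrays, the log2 change was 0.89 at OBX day 1 (limma adjusted p = 0.90). At OBX day 5 it was 0.84 (limma adjusted p = 0.33), and 0 of the 7508 probe sets were called in either comparison.

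Irf9, the DNA-binding subunit of the type I interferon complex, was the other member called higher at day 1. Its signals were 2318, 2384 and 2437 at OBX day 1, against 1451, 1324 and 1616 in untreated mice, where 1 of the 3 arrays called it present. The groups did not overlap, and the log2 change was 0.71 ± 0.12 (SE, n = 3 each, limma adjusted p = 0.0047). At OBX day 7 the signals were 1968, 2075 and 2350.1 and the log2 change was 0.54 ± 0.12 (limma adjusted p = 0.0074). At OBX day 5 they were 2309, 2422 and 2009, against 1690.2, 2008 and 1834 in sham mice, and the log2 change of 0.28 ± 0.12 did not pass (limma adjusted p = 0.099). The calls for Irf9 depended on the control group. Its sham signals all lay above the untreated ones, a log2 difference of 0.33 that did not pass (limma adjusted p = 1). Against sham, OBX day 1 gave 0.37 (limma adjusted p = 0.11) and OBX day 7 gave 0.21 (limma adjusted p = 0.26), while OBX day 5 against untreated gave 0.62 (limma adjusted p = 0.0019). With scan day as a block OBX day 1 gave 0.69 (limma adjusted p = 0.037) and OBX day 7 gave 0.49 (limma adjusted p = 0.59); with fluidics run as a block OBX day 1 gave 0.50 (limma adjusted p = 1).

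Irf7, the factor that drives transcription of the type I interferon genes, was not measured above background. The first probe set had signals of 327 to 599 over the 9 OBX arrays, 243 to 404 in sham mice and 359 to 405 in untreated mice. The other had 487 to 832 on the OBX arrays, 576 to 904 in sham mice and 684 to 856 in untreated mice. A single array, OBX day 5 array 2, was called marginal by that first probe set, and every other Irf7 call was absent, so no fold is given. Of the interferon genes themselves, 9 of the 11 listed ligands were on the array and 0 could be tested by the rule on present calls.

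The interferon-inducible GTPases Gbp2, Ifi47 and Irgm1, which act on the vacuoles of intracellular microbes, had their highest group means at OBX day 7. OBX day 7 was not told apart from OBX day 5 for any of them, with log2 differences of 0.96 ± 0.48, 0.51 ± 0.52 and 0.02 ± 0.21 (limma adjusted p = 0.56, 0.69 and 0.97). Nor was it told apart from OBX day 1, with 0.90 ± 0.48, 1.02 ± 0.52 and 0.49 ± 0.21 (limma adjusted p = 0.40, 0.37 and 0.24). Gbp2, a guanylate-binding protein, had signals of 982, 1076 and 1335 at OBX day 7, against 390.5, 392 and 314 in untreated mice. These groups did not overlap, and the log2 change was 1.62 ± 0.48, a fold of 3.08 (SE, n = 3 each, limma adjusted p = 0.038). Ifi47, an immunity-related GTPase induced by interferon gamma, had 843, 607 and 892 at OBX day 7 and was called present on all 3 arrays. In untreated mice it had 277, 232 and 230.0 and was called absent on all 3. Ifi47 was 3.14-fold higher at OBX day 7 (log2 change 1.65 ± 0.52, limma adjusted p = 0.048). It entered the test through the arrays where it was high, so its call adds no support to the member count. The same holds for the Gbp2 call, since Gbp2 met the rule on present calls only with its OBX arrays. Without the filter on present calls the limma adjusted p was 0.074 for Ifi47 and 0.059 for Gbp2; it was 0.060 for Ifi47 without the variance trend and 0.058 for Gbp2 with a floor of 200.

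Irgm1, a regulatory member of the same GTPase family, varied less between arrays. Its signals were 1173, 1011 and 1388 at OBX day 7, against 558, 644 and 674 in untreated mice, a log2 change of 0.92 ± 0.21 (limma adjusted p = 0.0092). At OBX day 5 they were 927, 1305 and 1303, against 632, 738 and 794 in sham mice, a log2 change of 0.70 ± 0.21 (limma adjusted p = 0.027). In both comparisons the groups did not overlap. At OBX day 1 the signals were 598, 971 and 1022, of which 1 lay within the untreated range and 2 above it, and the log2 change of 0.43 ± 0.21 did not pass (limma adjusted p = 0.35). The OBX day 5 call was lost without sham array 1 (0.60), sham array 2 (0.72), OBX day 5 array 2 (0.61) or OBX day 5 array 3 (0.61), with limma adjusted p of 0.063 to 0.099.

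Both Gbp2 and Ifi47 overlapped their sham signals at OBX day 5. Ifi47 at OBX day 1 overlapped the untreated signals and Gbp2 lay above them, and neither passed. Gbp2 had 275, 729 and 955 at OBX day 5, against 189, 934 and 385 in sham mice (log2 change 0.50 ± 0.48, limma adjusted p = 0.49, and -0.06 without sham array 1). Ifi47 had 268, 760.4 and 768 at OBX day 5, against 134, 583 and 340.0 in sham mice (log2 change 0.85 ± 0.52, limma adjusted p = 0.26). The same arrays were low for both genes: OBX day 5 array 1 and sham array 1 were the lowest of their groups, and sham array 2 was the highest of its group. At OBX day 1, Gbp2 had 512, 592 and 719.7 (log2 change from untreated 0.73 ± 0.48, limma adjusted p = 0.54), and Ifi47 had 209, 388 and 671 (0.63 ± 0.52, limma adjusted p = 0.65). In each case the highest value was array 3, the OBX day 1 array scanned with the OBX day 5 and day 7 arrays. Set against that array alone, OBX day 7 was higher by a log2 difference of 0.64 for Gbp2, 0.20 for Ifi47 and 0.21 for Irgm1.

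None of the 3 GTPase calls at OBX day 7 passed with scan day as a block, where the log2 changes from untreated were 1.24 for Gbp2 (limma adjusted p = 0.86), 0.41 for Ifi47 (limma adjusted p = 0.97) and 0.50 for Irgm1 (limma adjusted p = 0.86). That block rests on OBX day 1 array 3, the only link between the scan days within a group, and the part of scan day in these changes was not tested further. Against sham in place of untreated, OBX day 7 gave 0.72 for Irgm1 (limma adjusted p = 0.034), 1.46 for Gbp2 (limma adjusted p = 0.059) and 1.37 for Ifi47 (limma adjusted p = 0.096). Leaving out any 1 of the untreated or OBX day 7 arrays ended the Gbp2 and Ifi47 calls at OBX day 7, with log2 changes of 1.50 to 1.72 for Gbp2 and 1.54 to 1.82 for Ifi47.

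The array-by-array pattern of Gbp2 was shared most closely by other genes of this class. Likeness was measured as the root mean square difference between log2 profiles, each centred on its own mean over the 15 arrays. Iigp1, an effector GTPase at pathogen vacuoles, was nearest to Gbp2 at 0.26 log2 units and Ifi47 followed at 0.34, where the profile of Gbp2 itself had an SD of 0.83. Iigp1 had 1789.6, 1401 and 2324 at OBX day 7, against 607, 624 and 695 in untreated mice, and its log2 change of 1.49 ± 0.60 did not pass (limma adjusted p = 0.12). It had 301, 1406 and 1738 at OBX day 5, against 317, 1749.8 and 734 in sham mice, so the same OBX day 5 and sham arrays were low. Of the 5 other GTPases tested, Irgm2 alone was called, with 1144, 1154 and 1325 at OBX day 7 against 646, 505 and 605 in untreated mice (1.05 ± 0.27, limma adjusted p = 0.020); against sham its log2 change was 0.62 (limma adjusted p = 0.15) and the call was lost. Gbp7 had log2 changes of -0.14, -0.15 and -0.07 at OBX days 1, 5 and 7.

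**Figure D2:**
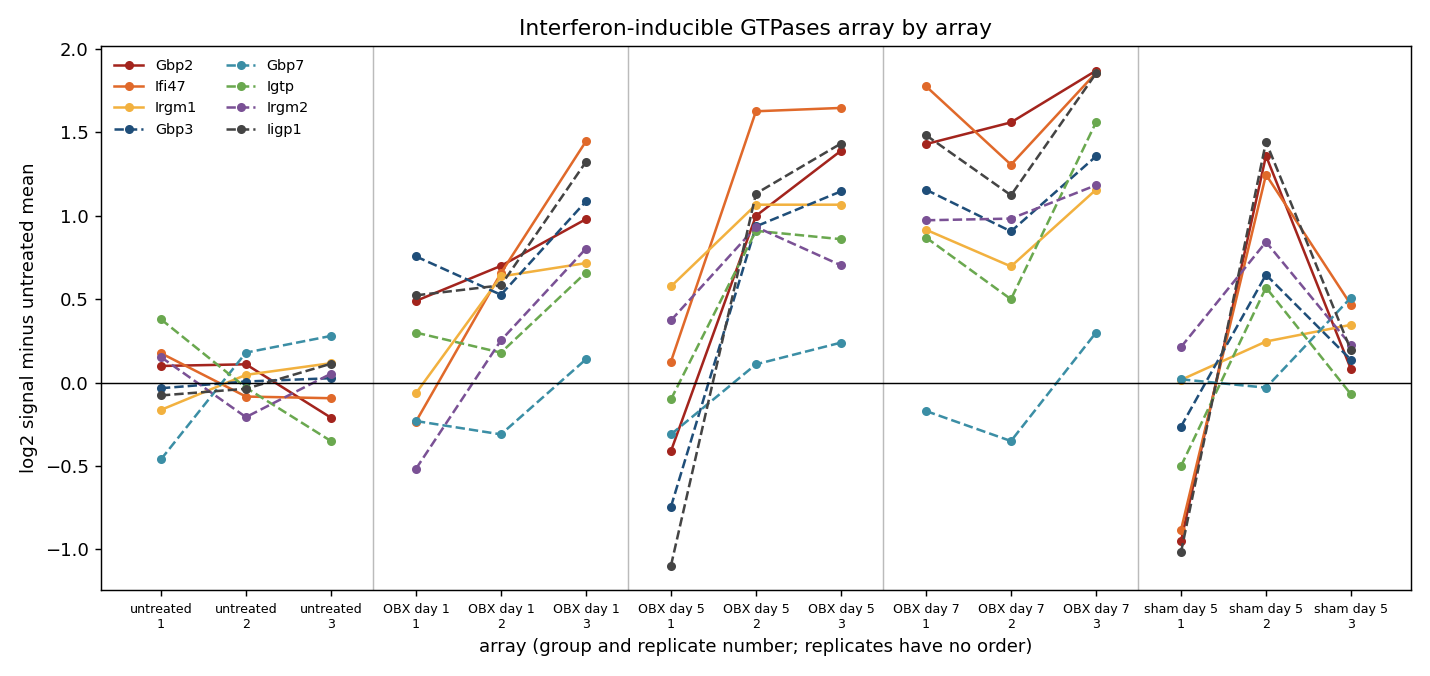
log2 signal minus the untreated mean for Gbp2, Ifi47 and Irgm1 (solid) and the 5 other interferon-inducible GTPases tested (dashed), on each of the 15 arrays; lines join the arrays of a group only to show 1 gene. Gbp2, Ifi47 and Iigp1 were low together on OBX day 5 array 1 and sham array 1 and high together on sham array 2.

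Ifit1, which binds viral RNA with an incomplete cap, was the member that fell. Its signals were 84.4, 226 and 232 at OBX day 5, against 557, 564 and 588 in sham mice. The groups did not overlap, and the log2 change was -1.79 ± 0.30 (SE, n = 3 each, limma adjusted p = 0.00085), 3.46-fold lower. Its sham signals all lay above its untreated ones, and against untreated mice OBX day 5 was 2.83-fold lower (-1.50, limma adjusted p = 0.0028). At OBX day 5 it was called present on 1 of 3 arrays, marginal on 1 and absent on 1. Without OBX day 5 array 1, which had the lowest signal, the log2 change was -1.31 (limma adjusted p = 0.00011). At OBX day 7 the signals were 295, 216 and 252, against 473, 422 and 505 in untreated mice, and the groups did not overlap either. That log2 change of -0.89 ± 0.30 did not pass (limma adjusted p = 0.068); against sham it was -1.18 (limma adjusted p = 0.020). At OBX day 1 the signals were 359, 471 and 394, which overlapped the untreated ones (log2 change -0.20 ± 0.30, limma adjusted p = 0.84).

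Between the OBX groups, Ifit1 was lower at OBX day 5 than at OBX day 1 by a log2 change of -1.30 ± 0.30 (limma adjusted p = 0.015), where 3.86% of probe sets were called lower. The difference between the changes from their own controls, day 5 minus day 1, was -1.59 ± 0.43 and did not pass (limma adjusted p = 0.082); leaving out OBX day 5 array 1, 2 or 3 it was -1.11, -1.83 or -1.84 and passed, with limma adjusted p of 0.015 to 0.047. Without OBX day 1 array 2 the difference between the OBX groups was -1.20 (limma adjusted p = 0.068). With scan day as a block the change at OBX day 5 against sham was -1.73 (limma adjusted p = 0.19). Ifit2, which lies in the same gene family, moved the same way: it had 28.5, 169.6 and 153 at OBX day 5, against 398, 435 and 372 in sham mice (-2.15 ± 0.49, limma adjusted p = 0.0066). Without OBX day 5 array 1 the Ifit2 change was -1.31 (limma adjusted p = 0.0014), and with a floor of 200 signal units it was -1.0 (limma adjusted p = 0.00079). The genes with profiles nearest to Ifit1 were Ahi1 and Pkia, at 0.20 and 0.21 log2 units, where the profile of Ifit1 had an SD of 0.75. The summed signal of 6 mature olfactory sensory neuron markers was lower alongside, at 30410 to 56615 at OBX day 5, against 113668 to 118446 in sham mice. Within OBX day 5, array 1 had the highest sum, 56615, and the lowest Ifit1 signal, 84.4. Array 3 had the lowest sum, 30410, and the highest Ifit1 signal, 232. The part of these neurons in the Ifit1 result was not tested.

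Ifi27l2a, a small hydrophobic protein of the ISG12 family, was called higher at OBX days 5 and 7. Its signals were 3180.4, 3483 and 1447 at OBX day 5, against 1190.4, 1114 and 1213 in sham mice, without overlap (log2 change 1.11 ± 0.30, limma adjusted p = 0.016). They were 2448, 1783 and 2419.6 at OBX day 7, against 701, 1429 and 936 in untreated mice, again without overlap (1.16 ± 0.30, limma adjusted p = 0.019). At OBX day 1 they were 734, 793 and 971, within the untreated range (-0.24 ± 0.30, limma adjusted p = 0.78). The OBX groups were also compared directly. OBX day 5 was higher than OBX day 1 by 1.61 ± 0.30 (limma adjusted p = 0.0033), where 3.96% of probe sets were called higher, and OBX day 7 was higher than OBX day 1 by 1.41 ± 0.30 (limma adjusted p = 0.012), where 2.21% were. The difference between the changes from their own controls, day 5 minus day 1, was 1.35 ± 0.42 and did not pass (limma adjusted p = 0.14). With scan day as a block none of the 4 calls passed: the differences from OBX day 1 were 1.38 (limma adjusted p = 0.15) and 1.18 (limma adjusted p = 0.35), and the changes from control were 0.76 at OBX day 5 (limma adjusted p = 0.66) and 0.82 at OBX day 7 (limma adjusted p = 0.82). OBX day 7 against sham gave 0.90 (limma adjusted p = 0.058). The OBX day 5 call was lost without OBX day 5 array 2 (0.87, limma adjusted p = 0.056) or sham array 2 (1.07, limma adjusted p = 0.053). The OBX day 7 call was lost without OBX day 7 array 1 (1.09) or 3 (1.09), or untreated array 1 (0.92) or 3 (1.13), with limma adjusted p of 0.058 to 0.092.

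Between OBX day 7 and OBX day 5, which were scanned on the same day, 0 members and 0% of all probe sets were called by limma, with 601 probe sets at an unadjusted p under 0.05. The members' log2 changes there ran from -0.20 for Ifi27l2a to 0.96 for Gbp2.

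**Figure D3:**
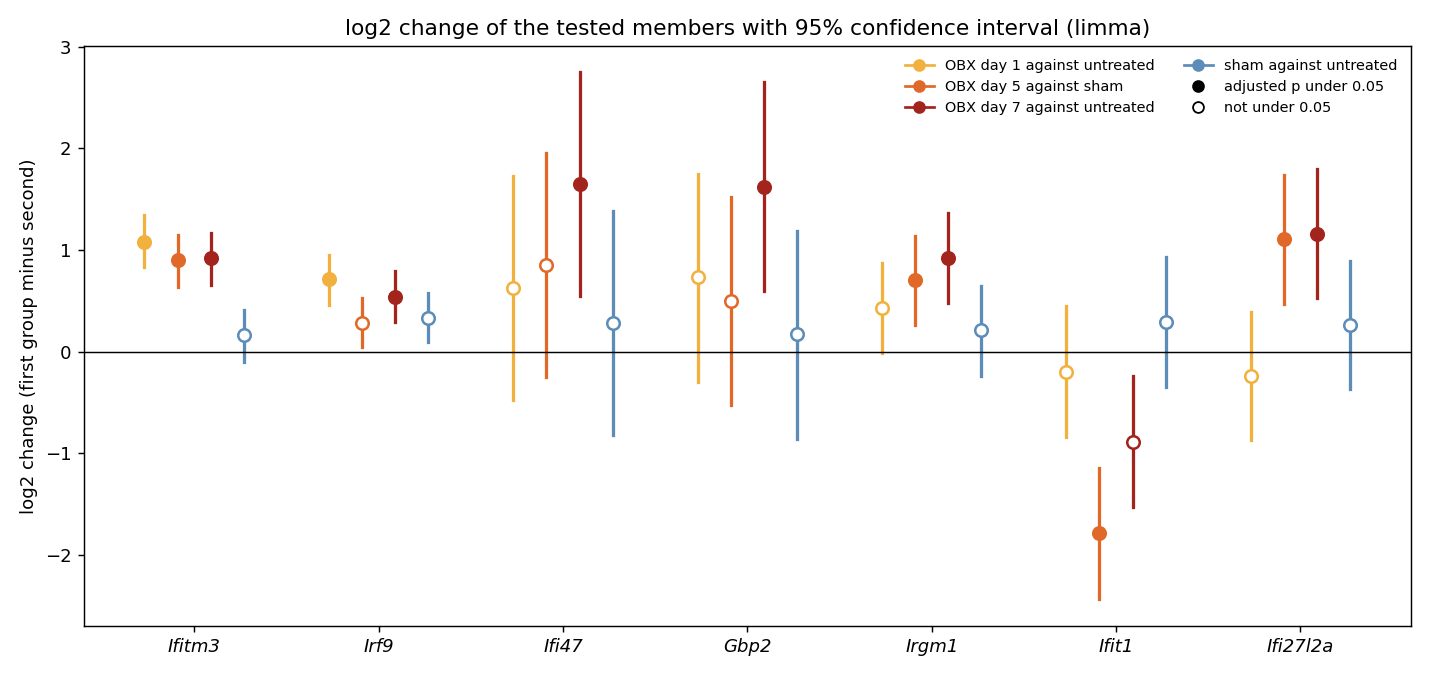
log2 change of the 7 tested members with 95% confidence intervals from limma, at OBX day 1 against untreated, OBX day 5 against sham, OBX day 7 against untreated, and sham against untreated; filled points have a limma adjusted p under 0.05. Ifitm3 lay near 1 at all 3 times after OBX, Ifit1 lay below 0 at each of them and reached -1.79 at OBX day 5, and no sham change was called.

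Other genes of the pathway were called in the same comparisons. A list of 96 other interferon pathway genes had 65 on the array and 47 tested, 1 probe set a gene. At OBX day 1, 3 of the 47 were higher and 0 lower than in untreated mice, where 1.8% of all probe sets were called higher. In the OBX day 5 comparison 12 were higher and 1 lower than in sham mice, where 11.8% and 9.19% of all probe sets were. In that of OBX day 7, 14 were higher and 0 lower than in untreated mice, where 7.01% of all probe sets were higher. These shares of all probe sets hold for the class counts too. Their median log2 changes were 0.28, 0.28 and 0.37. The counts include Usp18 at OBX days 5 and 7 and Ifi35 at OBX day 5. Both entered the test through the OBX arrays where they were high, so their calls add no support to the counts. Among the control arrays, Irf8 was called present on untreated array 2 and sham array 2 alone. It met the rule on present calls only with its OBX arrays, so its calls at OBX days 5 and 7 add no support either. By class, 1 of 4 receptors was higher at OBX day 5 and 1 at OBX day 7, and 0 of 3 signalling genes were called at any of the 3 times.

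Genes that restrain the response were among the called ones. Socs3, an inhibitor of JAK kinases, was higher at OBX day 1 with 1254, 1443 and 1406, against 641, 728 and 656 in untreated mice (log2 change 1.02 ± 0.14, limma adjusted p = 0.0019). It was also higher at OBX day 5 (0.68 ± 0.14, limma adjusted p = 0.0042) and at OBX day 7 (0.64 ± 0.14, limma adjusted p = 0.0095, and 0.051 without OBX day 7 array 2). A second Socs3 probe set was called at OBX days 1 and 7 but not at OBX day 5 (0.40 ± 0.21, limma adjusted p = 0.19). Usp18, which removes ISG15 from proteins and blocks signalling at the type I receptor, had 477, 650.3 and 515 at OBX day 5, against 264, 251 and 326 in sham mice. It was 1.95-fold higher there (limma adjusted p = 0.0068) and 2.15-fold higher at OBX day 7 than in untreated mice (limma adjusted p = 0.0047). Both control groups were called absent on all arrays, so Usp18 too was tested through its OBX arrays alone.

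Of 18 antiviral effectors, 2 were higher at OBX day 1, 5 higher and 1 lower at OBX day 5, and 4 higher at OBX day 7. Ly6e, a membrane protein that restricts coronavirus entry, had log2 changes of 0.46, 0.61 and 0.47 at the 3 times (limma adjusted p = 0.025, 0.00077 and 0.0076). Ifi30, a thiol reductase of antigen-processing compartments, had 0.81, 1.25 and 0.75 (limma adjusted p = 0.049, 0.00061 and 0.025). Both lost the day 1 call under quantile normalization or without the filter on present calls (limma adjusted p = 0.052 to 0.082), with scan day as a block (0.15 for Ifi30 and 0.11 for Ly6e), and without any 1 OBX day 1 array or untreated array 2 or 3 (0.055 to 0.22). The OBX day 7 call of Ifi30 was lost without any 1 OBX day 7 array or untreated array 1 or 2, with limma adjusted p of 0.061 to 0.095. Ifi35 was 1.59-fold higher at OBX day 5 (limma adjusted p = 0.0069). It had no present call on any sham or untreated array, so it was tested through its OBX arrays alone. Trim25, a ubiquitin ligase of RNA sensing, was higher at OBX day 7 (0.75 ± 0.17, limma adjusted p = 0.0089). The lower one was Ifit2, given above.

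Antigen-presentation genes of the pathway were among the called ones. Of 6 immunoproteasome and peptide-loading genes, 0 were called at OBX day 1, 3 were higher at OBX day 5 and 4 at OBX day 7. Against sham, 1 was higher at OBX day 1, Psme1 (0.63 ± 0.14, limma adjusted p = 0.023), and 0 of the 6 were called between OBX day 5 and OBX day 1. Psme1, a subunit of the proteasome activator PA28, had 2970.3, 2779.7 and 2585 at OBX day 5, against 1495, 1458 and 1682 in sham mice (log2 change 0.85 ± 0.14, limma adjusted p = 0.00082). Psmb8, a catalytic subunit of the immunoproteasome, had a log2 change of 0.91 ± 0.21 at OBX day 5 (limma adjusted p = 0.0060) and 0.85 ± 0.21 at OBX day 7 (limma adjusted p = 0.015), a call lost without OBX day 7 array 3 or untreated array 2 or 3 (limma adjusted p = 0.051 to 0.066). Irf8, a regulatory factor of macrophage development, had 759, 630.5 and 722 at OBX day 5, against 214, 467 and 234 in sham mice (1.29 ± 0.29, limma adjusted p = 0.0059). At OBX day 7 its log2 change was 1.30 ± 0.29 (limma adjusted p = 0.0093). Irf8 met the rule on present calls only with its OBX arrays. With scan day as a block, 1 of the 47 pathway genes was called at OBX day 1 and 0 at OBX days 5 and 7.

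**Figure D4:**
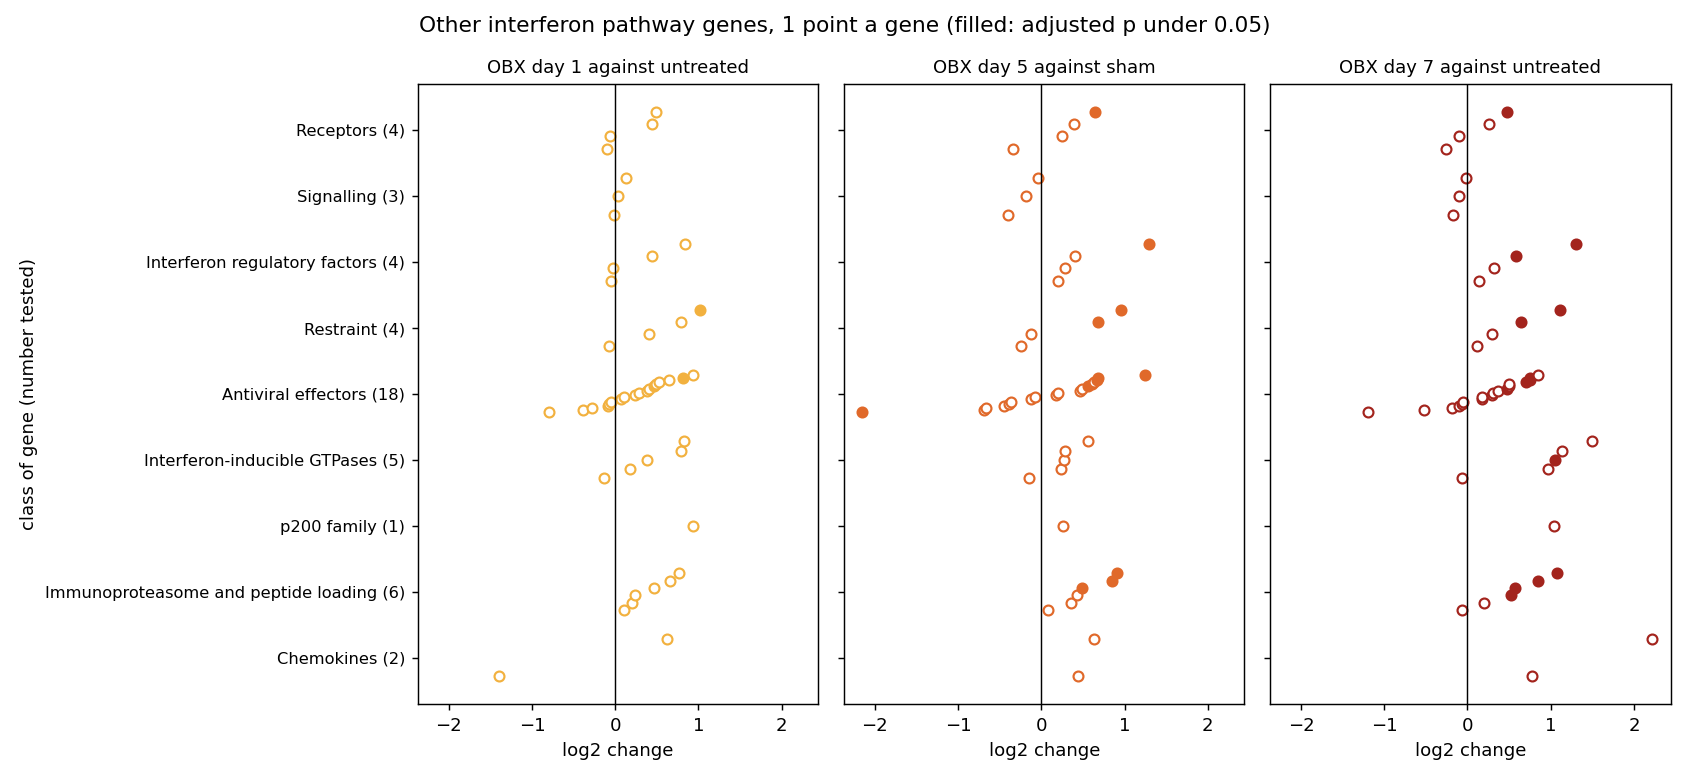
log2 change of the 47 other interferon pathway genes tested, 1 point a gene, by class and comparison; filled points have a limma adjusted p under 0.05. Filled points number 3 at OBX day 1, 13 at OBX day 5 and 14 at OBX day 7, and the lowest point at OBX day 5 is Ifit2 at -2.15.

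Some markers of macrophages were among the genes called higher in the same comparisons. Csf1r, Cd68 and C1qb were called present on all 3 arrays of every group. The summed signal of 14 macrophage markers was 26244 to 26785 at OBX day 1, 38408 to 42668 at OBX day 5 and 29410 to 33678 at OBX day 7, against 20715 to 26506 in sham mice and 19512 to 23190 in untreated mice. Of 11 tested, 1 was higher at OBX day 1, 6 at OBX day 5 and 6 at OBX day 7, where 1.8%, 11.8% and 7.01% of all probe sets were. The median log2 change of the 11 was 0.51, 0.75 and 0.41. Cd68, Cd14, C1qc, Fcgr1 and Mpeg1 did not pass at any of these times. The log2 changes of Cd68 were 0.54, 0.43 and 0.06, and those of Cd14 were -0.24, 0.04 and -0.05. The summed signal of 10 neutrophil markers was 53846 to 65121 at OBX day 1, 57533 to 63093 at OBX day 5 and 40801 to 53771 at OBX day 7, against 29010 to 45413 in sham mice and 27582 to 42978 in untreated mice. The neutrophil sums at OBX day 7 overlapped the untreated ones. Of 9 such markers tested, 1, 3 and 1 were higher at OBX days 1, 5 and 7, beside the same shares of all probe sets. Their median log2 change was 0.05, 0.17 and -0.06. The higher sum at OBX day 1 lay in Lcn2, with a mean of 22707 ± 3617 against 4999 ± 2314 in untreated mice (log2 change 2.28 ± 0.60, limma adjusted p = 0.062), and Ltf, with 13576 ± 1870 against 6419 ± 2560 (SD, n = 3 each, limma adjusted p = 0.039). Other markers such as Ngp, Camp and Elane had log2 changes of -0.45, -0.41 and -0.27 there and did not pass. Within OBX day 5, array 1 had the lowest macrophage sum, 38408, and also the lowest Gbp2, Ifi47 and Irgm1 signals but the highest Ifitm3 signal. The part of these cells in the members' changes was not tested.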

How the data were processed

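The authors deposited a linear signal intensity and a detection call for each probe set on each array. Which array software they used is not given in the sources used here. Deposited intensities share 1 scale, since the mean left after trimming 2% at either end lay between 1500.6 and 1500.7 for all arrays. Deposited array settings, of the unit other, gave a scan date and a hybridize date and were used only as batches. Arrays that shared a hybridize date are called a fluidics run here, a name that the settings were not read for. No array was left out, and precision is limited by how many there are.

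After a floor of 1, log2 was taken. Probe sets present on at least 3 of 15 arrays (7508) were fitted with 1 mean per group in limma 3.58.1 under R 4.3.3, with a variance trend. P-values are two-sided and adjusted by the Benjamini-Hochberg method within a comparison; a change was called under 0.05. The SE printed beside a log2 change is limma's moderated one. The fit was tested on simulated data. For a fold against a group called present on no array, the higher of the dim signal and the lowest signal called present on each array was used. That lowest signal was 59.6 or less, below the control signals of Ifi47, Usp18 and Ifi35. Their folds are therefore point estimates and not lower bounds.

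Genes were named from platform annotation (10833 probe sets with 1 gene, 396 with several, 1193 with none). Text names all 8 members, the 10 other pathway genes with the smallest adjusted p in a comparison of OBX with its control, and the 2 genes nearest in profile to Gbp2 and to Ifit1; the remaining GTPases were named after their values were seen. The brightest tested probe set stands for a gene. Members and lists were chosen with earlier results of these data known, so their counts are no independent evidence. Nothing says whether pools of a group came from separate operations, so p-values measure the spread between these pools.

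Replicate numbers did not pair the samples: deviations of same-numbered arrays correlated at -0.347 to 0.371, over 0.1 in 8 of 30 pairs. Alternatives were the filter, quantile normalization, a floor of 200, no variance trend, replicate number, scan day or fluidics run as a block, the other control and leaving out each array.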

Additional observations from a re-analysis of the deposited data

Results flagged for a closer look

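Ifi27l2a changed differently at 2 times measured against the same untreated mice: the log2 change at OBX day 7 exceeded that at OBX day 1 by 1.41 ± 0.30 (SE, n = 3 each, limma adjusted p = 0.012). Its signals were higher on 3 of 3 OBX day 7 arrays than on any OBX day 1 array. The call was lost with scan day as a block (1.18, limma adjusted p = 0.35). It was also lost without OBX day 7 array 1 (1.33) or 3 (1.34), or OBX day 1 array 1 (1.32) or 2 (1.38), with limma adjusted p of 0.051 to 0.060.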

How the results depend on the processing

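Member counts (main: 2 at OBX day 1 against untreated, 4 at OBX day 5 against sham, 6 at OBX day 7 against untreated, 2 for OBX day 5 against OBX day 1, 1 for OBX day 7 against OBX day 1) moved most with the batch. With scan day as a block the count stayed 2 at OBX day 1 (2 on the first scan day alone, an alternative chosen after seeing the data) and was 0 in the other 4 comparisons. With fluidics run as a block without the OBX day 7 arrays, also chosen after seeing the data in place of a random block whose estimated correlation was negative, it was 0 at OBX day 1, OBX day 5 and OBX day 5 against OBX day 1. Each fluidics run held 1 or 2 groups. With the other control it was 1 at OBX day 1, 5 at OBX day 5 and 3 at OBX day 7; a floor of 200 gave 2 for OBX day 7 against OBX day 1. Leaving out 1 array gave 2 to 2 at OBX day 1, 2 to 4 at OBX day 5, 3 to 4 at OBX day 7, 1 to 2 for OBX day 5 against OBX day 1 and 0 to 1 for OBX day 7 against OBX day 1; 0 was found in every setting for sham against untreated and for OBX day 7 against OBX day 5. The replicate block left the member counts at 2, 4, 6, 2 and 1. Called genes among the 47 other pathway genes numbered 3 at OBX day 1, 13 at OBX day 5 and 14 at OBX day 7. The count at OBX day 1 was 1 without the filter, under quantile normalization, with the scan day block, and without untreated array 2 or 3 or OBX day 1 array 2 or 3, and 0 with the fluidics block. That at OBX day 5 was 0 with either block. That at OBX day 7 was 0 with the scan day block, 8 against sham, 7 without untreated array 2 or 3 or OBX day 7 array 1, and 6 without OBX day 7 array 2 or 3. The cause of these moves was not tested.

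Uncalled log2 changes that turned sign were, under the fluidics block, Gbp2 -1.07 and Ifi47 -1.52 at OBX day 1, -0.44 and -0.96 at OBX day 5, and -0.94 and -0.88 for sham against untreated; under the scan day block, Ifi47 -0.38 at OBX day 5; for sham against untreated, Gbp2 -0.43 and Ifi47 -0.20 without sham array 2 (0.72 and 0.86 without sham array 1); Gbp2 -0.06 at OBX day 5 without sham array 1 (1.09 without sham array 2); and Ifi27l2a 0.03 at OBX day 1 without untreated array 2 (-0.48 without untreated array 1). Ifi47 and Gbp2 at OBX day 7 lost their calls without the filter (limma adjusted p = 0.074 and 0.059), Ifi47 also without the variance trend (0.060) and Gbp2 with the floor of 200 (0.058). Quantile normalization moved the median of all probe sets by at most 0.028. With the scan day block 50, 65 and 13 probe sets in all were called at OBX days 1, 5 and 7, and 185, 1578 and 978 without it. Ifit1 and Ifi47 lay near background in some groups, which limits their folds.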
